A study of Homo sapiens with 6 samples.

Results

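The transcripts of the machinery that starts transcription were examined in IGF2BP3 PAR-CLIP data of the colorectal carcinoma line HCT116. The members were the protein-coding genes of GENCODE release 44 whose symbols begin with MED, TAF, POLR1, POLR2, POLR3 or GTF2A to GTF2H followed by a subunit letter or number. The rule took 115 of 20046 protein-coding genes: 30 Mediator subunits, 37 TAFs, 34 RNA polymerase subunits and 14 general transcription factor genes named GTF2. POLR2J3 has 2 gene entries, so that the 115 genes carry 114 symbols, and 13 of the TAFs are TAF11-like genes of a multi-copy family. A cluster, a group of overlapping reads with T-to-C conversions, belonged to a member when it shared at least 1 nt with an exon of it on that strand.

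The HCT116 cells of all 6 libraries carried a Tet-inducible OsTIR1 gene, were labeled with 100 µM 4-thiouridine for 15 h and were crosslinked with long-wave UV light, which leaves a T-to-C conversion at a crosslinked 4-thiouridine. Endogenous IGF2BP3 was precipitated in 5 libraries, 3 digested with RNase I at 0.05/0.05, 0.1/0.025 or 0.05/0.025 U/µL (in-lysate/on-beads) and 2 with RNase T1, 1 at 1/1 and 1 at 0.25/0.25 U/µL. The control library was precipitated with IgG and digested with RNase I at 0.1/0.025 U/µL. RNase I cuts after any nucleotide and RNase T1 after G. Each condition had 1 library, so no comparison between conditions has a replicate check and none was tested. The RNase I 0.05/0.05 and the RNase T1 1/1 RNA was electroeluted and that of the other IGF2BP3 libraries came from crushed gel, so gel extraction and RNase concentration cannot be told apart between an electroeluted library and the others of its enzyme. The RNase I libraries at 0.1/0.025 and 0.05/0.025, both from crushed gel, differ in the in-lysate concentration. The antibody also recognises the paralog IGF2BP2 to some extent.

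Clusters held 182448 to 2362467 reads in the IGF2BP3 libraries and 324 reads in the IgG library, and values are given as CPM, the reads of a gene's clusters per 1000000 cluster reads of the library. With 3 reads as the limit that a count of 0 allows, a gene without a cluster could have up to 1.27 CPM with RNase I 0.05/0.05 and up to 16.4 CPM with RNase T1 0.25/0.25. The amount of each mRNA was not measured, so more mRNA and more binding per mRNA cannot be told apart. Of the epithelial markers, EPCAM had clusters in 5 of 5 libraries and KRT8, KRT18 and KRT19 in 4, while VIL1 and CDX1 had none. The leukocyte, fibroblast and endothelial genes PTPRC, COL1A1 and PECAM1 had no cluster.

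Transcription of a protein-coding gene starts when general transcription factors place RNA polymerase II at the promoter. TFIID, built of the TATA-binding protein and TAFs, recognises the core promoter, TFIIA and TFIIB steady and extend this complex, and TFIIF, TFIIE and TFIIH bring in the polymerase and open the DNA. Mediator links activators at enhancers to this machinery, and RNA polymerases I and III, which share several subunits with RNA polymerase II, make ribosomal and small RNAs. IGF2BP3 is an oncofetal protein that binds mRNAs in the cytoplasm and is known to affect their stability and translation.

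To show the sequence at strong sites, 30 nt or less of the strongest sites of 2 genes per complex are printed here in the sense direction of the mRNA. They were taken around the mode of the strongest RNase T1 1/1 cluster of a site found in all 5 libraries. Some of these clusters did not meet the target criteria given below. The TAF6 cluster had 10 reads (8.64 CPM). Those of MED13, POLR3F and GTF2A2 had 0.458, 0.435 and 0.377 conversion events per read. The POLR2A cluster had 26 reads (22.5 CPM), while the strongest RNase T1 1/1 cluster of that gene, elsewhere, had 60.5 CPM. Capitals mark the tetramers searched, which are CATT, in some windows CAGT, and in others CATA. Letters are given as in DNA, and the mRNA strand was searched.
MED13L: gtccaaggaacctgctacactctgcaaata
MED13: atgaCAGTgacttcaggtgttgcCATAtct
TAF9: gttctgattaatccatCATTaatcgggtcc
TAF6: attcccacacatgcagacatgtacacacgt
POLR2A: gctcaacctactctcccacttcccctg
POLR3F: tattttCAGTaCATAaatactatCATTttc
GTF2F1: atgcctgttaggccttcttattgtcctcct
GTF2A2: aaccttctttaataaactCATTttaaaact
In GRCh38 these windows lie at chr12:115961185-115961214 on the minus strand (MED13L), chr17:61965281-61965310 on the minus strand (MED13), chr5:69365075-69365104 on the minus strand (TAF9) and chr7:100107194-100107223 on the minus strand (TAF6). The others lie at chr17:7514076-7514102 on the plus strand (POLR2A), chr20:18484194-18484223 on the plus strand (POLR3F), chr19:6380023-6380052 on the minus strand (GTF2F1) and chr15:59638870-59638899 on the minus strand (GTF2A2). The windows of MED13, TAF9 and POLR2A are coding sequence and the other 5 are 3′UTR. The POLR3F window holds all 3 tetramers, and those of MED13L, TAF6, POLR2A and GTF2F1 hold none.

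A gene was called a target when any cluster on it exceeded both 10 CPM and 0.5 conversion events for each read. The thresholds follow the study, but CPM here is relative to the reads of the deposited clusters, so that the calls need not be those of the study. Counted over all annotated genes, members were targets more often than protein-coding genes as a whole in each of the 5 IGF2BP3 libraries. In the RNase I libraries at 0.05/0.05, 0.1/0.025 and 0.05/0.025 they numbered 46, 37 and 46 of 115 (40.0%, 32.2% and 40.0%, against 21.9%, 21.3% and 22.0% of all genes). In the RNase T1 libraries at 1/1 and 0.25/0.25 they numbered 39 and 29 (33.9% and 25.2%, against 19.6% and 13.7%). The share of all genes counts every annotated gene, also those with no cluster, and a cluster in any IGF2BP3 library was found for 87 of 115 members (75.7%) and for 46.7% of all genes. Of the genes with a cluster in a library, the share that were targets was 56.8%, 53.6% and 67.6% among members and 50.1%, 66.5% and 72.6% among all genes in the RNase I libraries. In the RNase T1 libraries it was 52.0% and 87.9% among members and 52.2% and 82.0% among all genes. On this count members were below all genes in 3 libraries and above in the other two. No member had a cluster with IgG, where 0 of 324 cluster reads allows a share of up to 0.926% and 0.0299% of all genes were targets. Members held 0.601% to 0.777% of the cluster reads of the IGF2BP3 libraries, so the shallow IgG library does not bound their background below this level.

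RNA polymerase subunits were targets most often, and the place of the TAFs depended on the TAF11-like genes. In at least 1 library 63 members were targets (54.8%, against 29.5% of all genes), namely 26 of 34 RNA polymerase subunits (76.5%), 8 of 14 GTF2 genes (57.1%), 15 of 30 Mediator subunits (50.0%) and 14 of 37 TAFs (37.8%). Without the 13 TAF11-like genes, none of which had a cluster, the TAF share was 14 of 24 (58.3%), above those of GTF2 genes and Mediator. RNA polymerase subunits had the highest share of targets in 3 of the 5 libraries, all with RNase I, and GTF2 genes in the other two. TAFs had the lowest share in all 5 when the TAF11-like genes were counted, at 27.0%, 21.6% and 27.0% with RNase I and 13.5% and 16.2% with RNase T1. Without them the TAF share was 41.7%, 33.3% and 41.7% with RNase I and 20.8% and 25.0% with RNase T1, while that of Mediator was 36.7%, 30% and 30% and then 40.0% and 23.3%. TAFs were then the lowest of the 4 complexes with RNase T1 1/1 only, and their share was above that of all genes in each library.

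**Figure D1:**
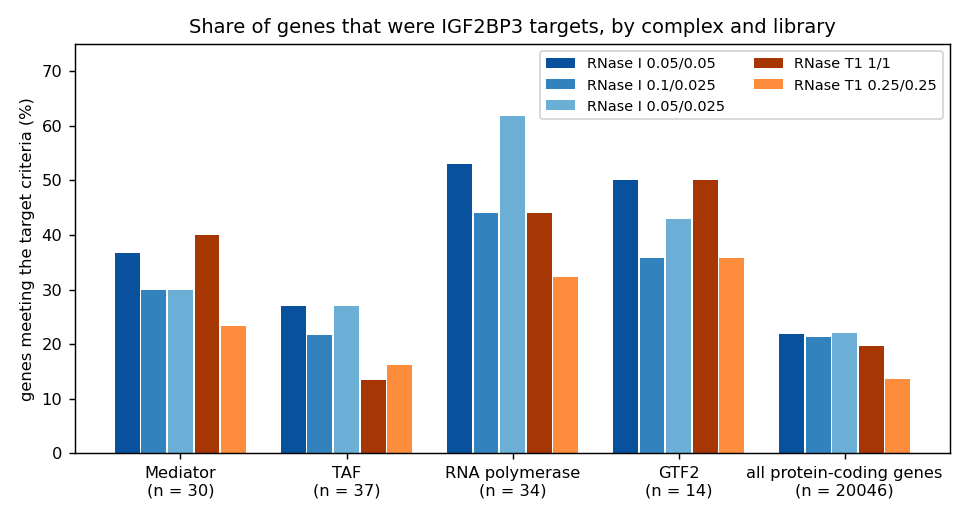
Share of genes meeting the target criteria (%) in each of the 5 IGF2BP3 libraries, for the 4 complexes and for all protein-coding genes, with 1 bar per library and no error bar because each condition had 1 library. RNA polymerase subunits range from 32.4% to 61.8%, and TAFs, with the 13 TAF11-like genes counted, from 13.5% to 27.0%.

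In all 5 IGF2BP3 libraries 22 members were targets (19.1%, against 9.91% of all genes). They were MED1, MED4, MED13, MED13L, MED21, MED28 and MED29 of Mediator, TAF2 and TAF9 of TFIID, POLR1A, POLR1B, POLR1D, POLR1F, POLR2A, POLR2D, POLR2E, POLR2K and POLR2M of the polymerases, and GTF2A1, GTF2A2, GTF2F1 and GTF2H3. By part of a complex, 3 of 6 subunits specific to RNA polymerase I were among them, 3 of 11 of RNA polymerase II and 0 of 10 of RNA polymerase III, although 7 of these 10 were targets in at least 1 library. The 11 RNA polymerase II genes count POLR2M, which is only associated with the enzyme, POLR2J2 and both entries of POLR2J3. In Mediator, 2 of 4 kinase module genes, 3 of 9 middle, 2 of 9 tail and 0 of 7 head genes were targets in all 5. These parts hold too few genes to set their counts against the 9.91% of all genes.

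**Figure D2:**
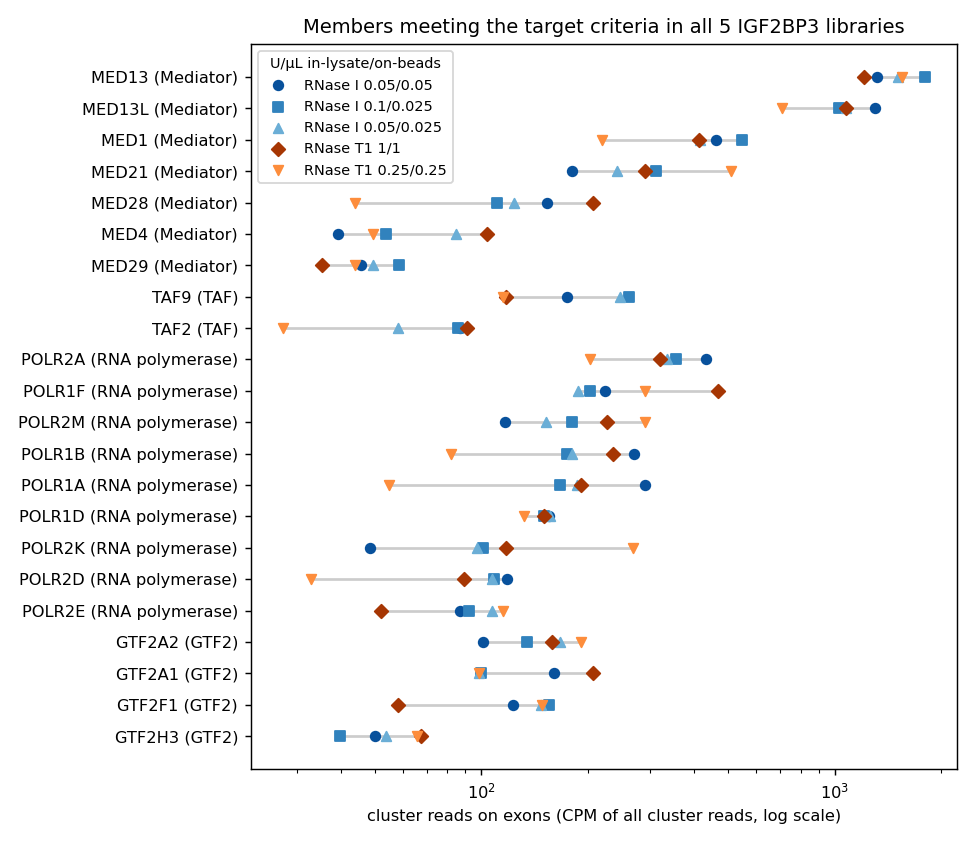
Cluster reads on exons (CPM, log scale) of the 22 members that were targets in all 5 IGF2BP3 libraries, with 1 symbol per library and a gray line from the lowest to the highest value. MED13 and MED13L lie above the other members in every library, without scaling to transcript length.

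The reads were concentrated on few transcripts. Summed over members, the mean over the 5 libraries was 7315 CPM, of which Mediator took 51.5%, RNA polymerases 30.5%, TAFs 10.1% and GTF2 genes 7.89%. MED13 and MED13L alone held 66.8% of the Mediator value and 34.4% of that of all members, and the 10 members with the most held 62.6%. Per kb of summed exon length, Mediator had 30.6 CPM, RNA polymerases 22.1, GTF2 genes 13.6 and TAFs 8.32, and all protein-coding genes had 11.9. The Mediator value includes MED13 and MED13L, which had 141 and 105 CPM per kb of exon. Its lead per kb rests in part on these 2 genes, and the value per kb without them was not computed. Without them the summed mean of Mediator, not scaled to length, was 1250 CPM, against 2232 for RNA polymerases. Per kb, the kinase module with these 2 genes had 66.1 CPM and the middle module 33.7. The tail had 7.69, the scaffold 6.51 and the head 6.14, all below the value of all genes.

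Among Mediator subunits, MED13 (ENSG00000108510) had 1321, 1805 and 1506 CPM in the RNase I libraries at 0.05/0.05, 0.1/0.025 and 0.05/0.025 and 1212 and 1546 CPM in the RNase T1 libraries at 1/1 and 0.25/0.25. MED13 and its paralog MED13L are alternative subunits that tether the CDK8 kinase module to the core of Mediator. By mean CPM, not scaled to length, they ranked 44 and 91 among all protein-coding genes. Per kb of exon, MED13 and MED13L ranked 429 and 628. MED13L (ENSG00000123066) had 1301, 1027 and 1078 CPM in the RNase I libraries, in the order above, and 1076 and 707 in the RNase T1 libraries. It was lowest where the depth was lowest, with RNase T1 0.25/0.25. MED12, another subunit of the kinase module, had a cluster in 1 library only, at 5.08 CPM.

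MED1, the middle subunit that nuclear receptors bind, had 460, 548 and 414 CPM with RNase I and 413 and 219 with RNase T1. MED21, a small subunit of the middle module, had 180, 311 and 242 CPM with RNase I and 289 and 510 with RNase T1. The values of MED21 with the 2 enzymes overlapped, while those of MED1 did not, although the lowest RNase I value and the highest RNase T1 value of MED1 were 414 and 413. Of the Mediator genes that the study singles out, MED4 of the middle module was a target in all 5 libraries, with 39.4, 53.5 and 85.0 CPM with RNase I and 104 and 49.3 with RNase T1. MED14, the scaffold that joins the modules, was a target in 2 libraries, MED20 of the head in 3 and MED24 of the tail in 1.

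Among RNA polymerase subunits, POLR2A (ENSG00000181222), the catalytic subunit of RNA polymerase II, had the most reads, with 433, 355 and 335 CPM in the RNase I libraries and 321 and 203 in the RNase T1 libraries. POLR1F (ENSG00000105849), a stalk subunit of RNA polymerase I, had 224, 203 and 188 CPM with RNase I and 466 and 290 with RNase T1. All values of POLR2A were higher with RNase I than with RNase T1, and all of POLR1F lower. POLR2M, which is associated with RNA polymerase II, had 117, 180 and 152 CPM with RNase I and 226 and 290 with RNase T1, also higher with RNase T1.

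POLR1A and POLR1B form the catalytic core of RNA polymerase I. POLR1A had 290, 167 and 186 CPM with RNase I and 191 and 54.8 with RNase T1, and POLR1B had 270, 174 and 180 and then 235 and 82.2. For both, the highest value was in the RNase I 0.05/0.05 library and the lowest in the RNase T1 0.25/0.25 library. POLR1D, shared by RNA polymerases I and III, varied least among the 22 by the ratio of its extremes, between 132 and 157 CPM, and had the highest level per kb of exon of all members, 215 CPM. The length is that of the canonical transcript, while 56.8% of the CPM of POLR1D lay on exons outside it. POLR1C, its partner in both enzymes, had no cluster in 2 libraries and at most 22.4 CPM. POLR2D, a stalk subunit of RNA polymerase II, had 118, 108 and 107 CPM with RNase I and 89.0 and 32.9 with RNase T1, and 25.6% of its reads lay in clusters that also overlap the pseudogene RPS26P19.

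Among TAFs, TAF9 (ENSG00000273841), a histone-fold subunit of TFIID and SAGA, had the most reads, with 174, 261 and 247 CPM in the RNase I libraries and 118 and 115 in the RNase T1 libraries. Its paralog TAF9B had 55.5, 51.0 and 56.7 CPM with RNase I and 185 and 137 with RNase T1. The paralogs ran in opposite directions, as all values of TAF9 were higher with RNase I and all values of TAF9B higher with RNase T1. TAF2, which contacts promoter DNA, had 87.2, 85.9 and 58.1 CPM and then 90.7 and 27.4. TAF1D, a subunit of the RNA polymerase I factor SL1, had 67.2 to 100.3 CPM in 4 libraries and no cluster with RNase T1 0.25/0.25, and 94.8% of its CPM lay on exons outside the canonical transcript, including clusters shared with the small nucleolar RNA SNORA40 (29.3% of its reads). TAF4, a scaffold of TFIID, was a target in 3 libraries, its paralog TAF4B in 4, and TAF1, the largest subunit of TFIID, had 1 library with a cluster, at 2.96 CPM.

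Among GTF2 genes, the genes of TFIIA had the most reads. GTF2A2 had 101, 134 and 167 CPM with RNase I and 158 and 192 with RNase T1, and GTF2A1 had 160, 99.6 and 98.4 and then 207 and 98.7. GTF2F1, the large subunit of TFIIF, had 123, 156 and 148 CPM with RNase I and 57.9 and 148 with RNase T1. GTF2H3, a core subunit of TFIIH, had 49.9, 39.8 and 53.7 CPM with RNase I and 67.4 and 65.8 with RNase T1. Both RNase T1 values of GTF2H3 were above its RNase I values, while those of the other three genes overlapped.

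No cluster was found for 28 members. They were MED7, MED12L, MED16, MED27 and MED31, TAF11, TAF6L, TAF7L and the 13 TAF11-like genes, POLR1H, POLR2I and POLR2J2, and GTF2A1L, GTF2H2, GTF2H2C and GTF2H4. Several of these belong to families of near-identical copies, for which the treatment of reads with several matches is not given in the sources used here. The 2 entries of POLR2J3 overlap the same 4 clusters with 32 reads, which also overlap a readthrough gene, so each count above includes them as 2 genes.

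Of the 10 members that the study names as examples, 5 were targets in all 5 libraries (POLR1A, POLR1B, POLR2D, MED4 and TAF9) and 5 in 1 to 4 (POLR1C, MED14, MED20, MED24 and TAF4). Their mean CPM ranged from 11.6 to 188. Other genes of the same processes were counted from a list of 39 genes, of which 22 were targets in at least 1 library (56.4%, against 29.5% of all genes), 7 in all 5 (17.9%, against 9.91%), and 3 had no cluster. Those with the most reads were DR1, an inhibitor of the TATA-binding protein, at a mean of 730 CPM, GTF3C4 of the RNA polymerase III factor TFIIIC at 497, and the elongation factor gene TCEA1 at 203. The list held 3 genes of the Mediator kinase, all targets in at least 1 library, and 5 enzymatic genes of TFIIH, none of which was, too few genes of either kind to set against the 29.5% of all genes.

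Summed over members, reads lay in 3′UTRs less and in coding sequence more than those of all genes, which rested in part on MED13 and MED13L. The 3′UTR of the canonical transcript took 57.7%, 57.7% and 58.3% of the member reads in the RNase I 0.05/0.05, 0.1/0.025 and 0.05/0.025 libraries and 67.9% and 70.3% in the RNase T1 1/1 and 0.25/0.25 libraries, against 78.5%, 80.5%, 79.2%, 85.3% and 85.7% over all genes. The coding sequence took 39.1%, 38.7%, 38.8%, 27.1% and 26.3% of the member reads, against 19.2%, 17.3%, 18.7%, 11.8% and 12.0%. Without MED13 and MED13L the 3′UTR took 67.0%, 68.2% and 69.3% of the member reads with RNase I and 76.9% and 81.9% with RNase T1. The coding sequence then took 28.4%, 26.3% and 26.2% with RNase I and 17.5% and 12.6% with RNase T1, the last near the 12.0% of all genes. The 95% Wilson intervals of the member 3′UTR shares, which cover counting error only, ranged from 56.5% to 72.9%. A cluster overlapping both features was counted as 3′UTR, and 9.80% of the member reads with RNase I 0.05/0.05 were in such clusters.

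The 4 complexes differed in this position. Reads of GTF2 genes were mostly counted as 3′UTR, at 89.7% to 96.0% over the 5 libraries, followed by RNA polymerase subunits at 71.5% to 82.6%, Mediator at 47.5% to 61.1% and TAFs at 41.4% to 57.3%. With RNase I 0.05/0.05, 23.3% of the GTF2 reads were in clusters that overlap both 3′UTR and coding sequence, and at most 1.12% in any other library. The RNA polymerase share includes POLR2A, for which no 3′UTR is annotated in the transcript used. Without POLR2A it was 87.6%, 85.7% and 86.1% with RNase I and 90.9% and 92.3% with RNase T1, above all genes in each library. The Mediator share rested in part on MED13 and MED13L. Without them it was 63.6%, 68.2% and 69.8% with RNase I and 78.8% and 87.1% with RNase T1. It then stayed below all genes except with RNase T1 0.25/0.25, where all genes had 85.7%. In TAFs, 11.7% to 15.3% of the reads lay in other exons in 4 libraries, and 0 of 75 reads with RNase T1 0.25/0.25 (95% Wilson interval up to 4.87%). Most of these reads were of TAF1D, without which 2.51% to 6.80% of the TAF reads lay in other exons in the same 4 libraries.

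**Figure D3:**
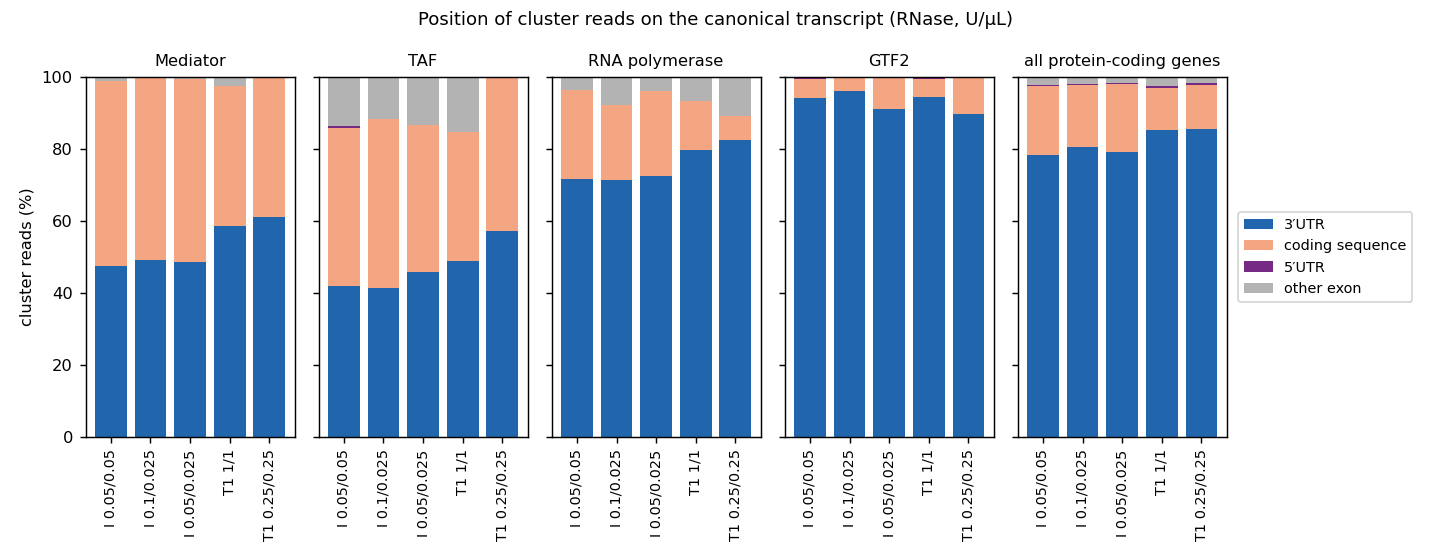
Share of cluster reads (%) in the 3′UTR, coding sequence and 5′UTR of the canonical transcript or in another exon, for the 4 complexes and all protein-coding genes in the 5 IGF2BP3 libraries (RNase and U/µL in-lysate/on-beads on the x axis). GTF2 genes lie above and Mediator and TAFs below all genes in the 3′UTR share, and POLR2A enters the RNA polymerase bars with no annotated 3′UTR.

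By gene, more than 50% of the CPM lay in coding sequence for 15 of the 74 members with at least 20 reads (20.3%, against 13.9% of all genes). They were MED1, MED13, MED14, MED15 and MED30, TAF2, TAF3, TAF5L, TAF9, TAF12 and TAF15, and POLR2A, POLR2B and both entries of POLR2J3, with no GTF2 gene. The coding sequence held 64.7% of the CPM of MED13, 57.5% of that of MED1, 87.3% of that of MED14 and 81.4% of that of TAF9. MED13L had 45.2% in its coding sequence, TAF9B 4.26% against TAF9's 81.4%, and MED21 and POLR1F had 100% and 99.8% in their 3′UTRs. For POLR2A the coding share was 82.9%, and the remaining 17.1% fell in another exon. Its canonical transcript ends at the stop codon in the annotation used, so clusters that run past this end were counted as coding, and they held 16.2% of its CPM, which leaves 66.7% in clusters within the coding sequence. In the RNase I 0.05/0.05 library they held 339 of its 1022 reads. Its strongest cluster with RNase I 0.05/0.05 ran past that end, from base 7514071 to 7514415 of chromosome 17.

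The strongest sites were stretches merged from overlapping clusters of the libraries, with a cluster in every library. A site can hold several separate clusters of 1 library. With RNase T1 1/1, the strongest single cluster of the MED21 site had 93.3 CPM of the 256 CPM of that site. The strongest site of all, in MED13L, spanned coding sequence and 3′UTR over 733 nt and had 493, 441 and 444 CPM with RNase I and 212 and 411 with RNase T1. A coding site of 461 nt in MED13 had 248, 340 and 286 CPM with RNase I and 211 and 345 with RNase T1, and the 3′UTR site of MED21 had 159, 287 and 216 and then 256 and 510. The coding site of TAF9 had 97.4, 126 and 128 CPM and then 92.5 and 87.7. Merged over libraries, members had 797 sites, of which 65 had a cluster in all 5 libraries (8.16%, and 6.71% of the sites of all genes), 15 of them in MED13, 5 in MED1, 5 in POLR2M and 4 in MED13L.

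Along the 3′UTR the reads were toward the stop codon. Of the CPM in member 3′UTRs, cut into 5 parts of equal length, 31% lay in the part nearest the stop codon, and 29.1%, 18%, 13.8% and 8.14% in the following parts, against 28.1%, 22.7%, 19.0%, 17.2% and 13% over all genes. GTF2 genes had 36.0% in the nearest and 1.72% in the farthest part. By length of the 3′UTR, members were targets in 13 of 44 cases with up to 500 nt (29.5%), in 31 of 45 with more than 500 and up to 2000 nt (68.9%) and in 19 of 26 with more than 2000 nt (73.1%) in at least 1 library, and the shares over all genes in the same classes were 14.3%, 30.6% and 44.5%. The shortest class counts 15 members with no annotated 3′UTR, which are the 13 TAF11-like genes, POLR2A and 1 entry of POLR2J3. Without the TAF11-like genes its share was 13 of 31 (41.9%), and among members with an annotated 3′UTR 11 of 29 (37.9%, against 14.8% of all genes with one). RNA polymerase subunits with up to 500 nt were targets in at least 1 library in 7 of 11 cases with an annotated 3′UTR (63.6%), and Mediator subunits in 1 of 8 (12.5%). In single libraries these RNA polymerase counts were 2, 1 and 5 of 11 with RNase I 0.05/0.05, 0.1/0.025 and 0.05/0.025. They were 3 and 1 with RNase T1 1/1 and 0.25/0.25. The shares of all such genes were 10.3%, 9.71%, 11.2%, 6.26% and 4.77% in this order.

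RNase I gave broader coverage of member 3′UTRs than RNase T1 in the electroeluted libraries. Coverage, the percentage of 3′UTR nucleotides under a cluster, was higher with RNase I 0.05/0.05 than with RNase T1 1/1 for 58 of 61 members with 3′UTR clusters in both (95.1%, against 94.7% of all genes), with medians of 29.7% and 8.61%. The share was near that of all genes, and the RNase I library held more cluster reads, 2362467 against 1157194. In MED13L coverage was 65.4% and 32.6%, in MED13 64.7% and 22.2%, in TAF9 72.5% and 12.0%, and in GTF2F1 73.9% and 22.4%. The exceptions were GTF2H5, POLR1G and TAF10, each covered by under 4% with RNase I 0.05/0.05. Member clusters had a median length of 62.5 nt with RNase I 0.05/0.05 and 34 nt with RNase T1 1/1.

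**Figure D4:**
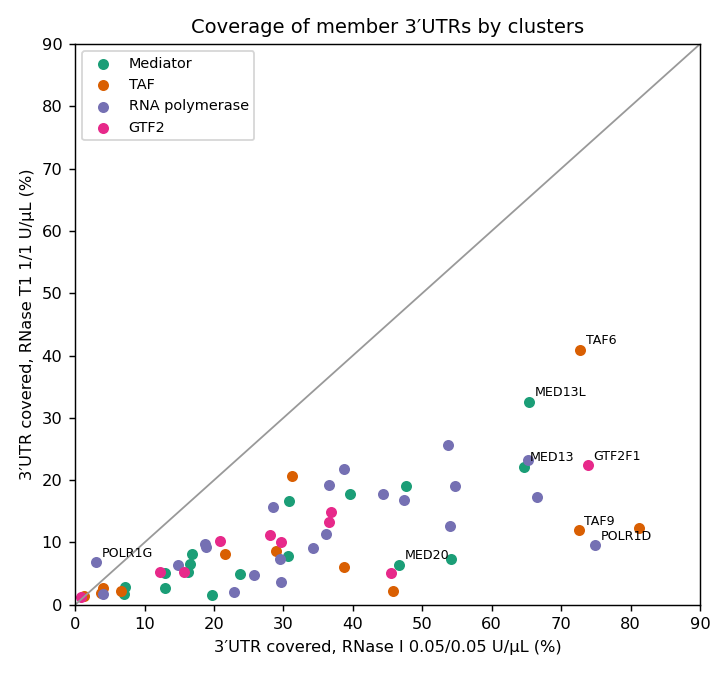
Percentage of 3′UTR nucleotides under clusters with RNase I 0.05/0.05 U/µL (x axis) and RNase T1 1/1 U/µL (y axis) for the 61 members with 3′UTR clusters in both libraries, colored by complex, with the line of equal coverage in gray. All but 3 points lie below the line.

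Levels of some members separated by enzyme. Among 74 members with at least 20 reads, all 3 RNase I values were above both RNase T1 values for 18 (24.3%, against 20.5% of all genes) and below both for 7 (9.46%, against 8.37%). Both shares were near those of all genes, and 11 of the 18 had no cluster in the shallow RNase T1 0.25/0.25 library. Among the largest differences toward RNase I of the members whose values did not overlap were those of MED20 and GTF2E2. MED20 had 101, 131 and 107 CPM with RNase I and 16.4 and 0 with RNase T1, and GTF2E2, a subunit of TFIIE, 36.8, 39.8 and 20.9 and then 10.4 and 0. In the electroeluted libraries MED20 was 6.14-fold and GTF2E2 3.55-fold higher with RNase I.

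Among the members whose values did not overlap, GTF2H1, TAF9B and POLR3K had some of the largest differences toward RNase T1. GTF2H1, a core subunit of TFIIH, had 22.4, 7.47 and 8.95 CPM with RNase I and 51.8 and 27.4 with RNase T1, and POLR3K, a small subunit of RNA polymerase III, 12.3, 13.7 and 10.4 and then 26.8 and 32.9. In the RNase I libraries at 0.1/0.025 and 0.05/0.025, GTF2H1 had 6 and 6 reads and POLR3K 11 and 7. With RNase T1 0.25/0.25 these genes had 5 and 6 reads, and 3 reads already equal 16.4 CPM there. In the electroeluted libraries TAF9B was 3.34-fold higher with RNase T1, a log2 ratio of 1.74 with a 95% exact interval for counting error of 1.42 to 2.06, GTF2H1 was 2.31-fold and POLR3K 2.18-fold higher. TAF9 had a log2 ratio of -0.57 (95% exact interval -0.86 to -0.29) in the same libraries. By complex, 6 of 19 Mediator subunits were higher with RNase I (31.6%) and 0 were lower. The same counts were 6 and 4 of 28 RNA polymerase subunits (21.4% and 14.3%), 5 and 1 of 17 TAFs (29.4% and 5.88%) and 1 and 2 of 10 GTF2 genes (10% and 20%). Over all genes the shares were 20.5% and 8.37%. Of the members higher with RNase I, 4, 3, 3 and 1 in this order had no cluster with RNase T1 0.25/0.25.

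**Figure D5:**
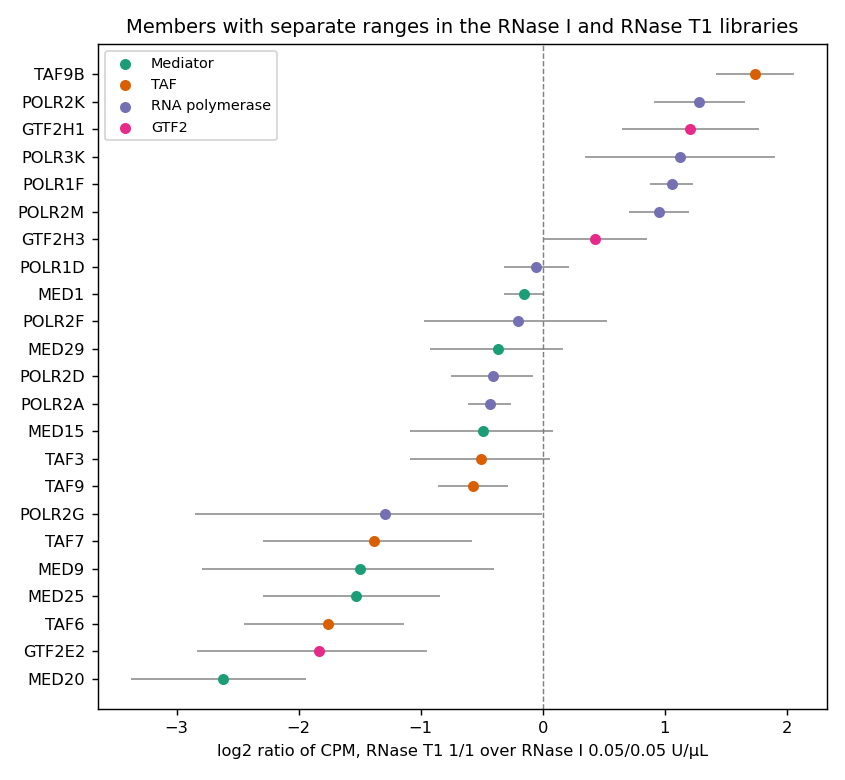
Log2 ratio of CPM with RNase T1 1/1 over RNase I 0.05/0.05 U/µL for the members whose RNase I and RNase T1 values did not overlap and that had reads in both libraries, except 1 gene not reported here, colored by complex, with 95% exact intervals that cover counting error only. TAF9B is at 1.74 and its paralog TAF9 at -0.57.

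Conversions of the members were close to those of all genes, as were the tetramers, except for a lower share of CAUU with RNase T1. This lower share did not hold in every complex. Member clusters had 0.524 to 0.657 conversion events per read over the 5 libraries, and those of all genes 0.512 to 0.651. In windows of at most 30 nt around the mode of clusters above 10 CPM, CAUU was found in 18.6% of 242 member clusters with RNase T1 1/1 (95% Wilson interval 14.2% to 24.0%), against 24.5% over all genes. With RNase T1 0.25/0.25 it was found in 17.1% of 111 (11.2% to 25.2%), an interval that includes the 23.9% of all genes. With RNase T1 1/1 the CAUU shares of Mediator, TAFs, RNA polymerases and GTF2 genes were 17.7%, 20.8%, 17.6% and 25.0%, of 113, 24, 85 and 20 clusters. With RNase T1 0.25/0.25 they were 12.7%, 36.4%, 14.7% and 27.3%, of 55, 11, 34 and 11 clusters. CAGU was found in 16.5% of the 242 member clusters with RNase T1 1/1 (12.4% to 21.7%), against 14.4%. In the RNase I libraries CAUU was found in 11%, 15.7% and 17.4% of the member clusters, against 12.2%, 15.5% and 16.3%, and CAGU with RNase I 0.05/0.05 in 13.7%, against 13.7%. With RNase T1 1/1, CAUA was found in 15.7% (11.7% to 20.8%), against 14.8%.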

How the data were processed

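IGF2BP3 PAR-CLIP clusters of 5 libraries and 1 IgG library were used, with 1 library per condition. Per the submitters' processing notes, the authors used bcl2fastq 2.20.0.422, UMI-tools 1.1.1, Trimmomatic 0.30 and Bowtie 0.12.7 with GRCh38.p13, and PARalyzer for the clusters of each library. Each deposited cluster has a count of reads and counts of conversion events, without normalization. The deposited mode score, a fraction, was not used in any result.

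Clusters were assigned to genes of GENCODE release 44 with bedtools 2.31.1, Python 3.11.15, numpy 2.4.6, pandas 2.3.3 and scipy 1.17.1; matplotlib 3.10.9 drew the plots. CPM is relative to cluster reads, so 10 CPM equals 1.82 to 23.6 reads among the IGF2BP3 libraries. Features came from the canonical transcript, with 3′UTR before coding sequence. No test between conditions was run, and intervals cover counting error only. On simulated clusters for RNase I 0.05/0.05, target calling recovered 200 of 200 genes made to meet the criteria and called 0 of 200 others. The calls need not be those of the study, since CPM is not relative to all of its reads.

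Genes with values were the 4 highest members per complex, the targets in all 5 libraries, the members the study names, the 3 largest enzyme differences each way (except 1 gene that is not reported here), and paralogs and multi-copy genes. MED12, TAF1 and the sites and features of other members were added after their values were seen. The printed windows leave out the genes of a chromosome not reported by sequence here, among them POLR2K, whose site had a higher mean CPM than that of POLR3F. The members and lists were chosen with earlier results of these data known. Alternatives changed the CPM, read and conversion criteria, the gene assignment, the feature order and transcripts, the tetramer window, the overlap of sites, the coverage minimum and the libraries.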

Additional observations from a re-analysis of the deposited data

Results flagged for a closer look

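Reads in clusters within member genes but outside annotated exons were not part of any comparison above and were absent from the IgG library, which held 324 cluster reads. The RNase I libraries at 0.05/0.05, 0.1/0.025 and 0.05/0.025 held 292, 42 and 15 such reads, and the RNase T1 libraries at 1/1 and 0.25/0.25 held 279 and 0. Of these, MED13 had 166 in RNase I 0.05/0.05, 30 in RNase I 0.1/0.025 and 163 in RNase T1 1/1. MED21 had 40 and 36 in the 2 electroeluted libraries.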

How the results depend on the processing

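No paired analysis was possible because each condition had 1 library. Counts of targets depended most on the criteria. In the order RNase I 0.05/0.05, 0.1/0.025, 0.05/0.025, RNase T1 1/1 and 0.25/0.25, the main counts were 46, 37, 46, 39 and 29. Above 20 CPM they were 29, 24, 30 and 23 in the RNase I libraries and RNase T1 1/1, and above 5 CPM 62 with both RNase I 0.1/0.025 and RNase T1 1/1. With at least 20 reads they were 23, 23, 25 and 3 in the last 4 libraries, where 10 CPM is fewer reads. Above 0.75 conversion events per read they were 13, 19, 26, 15 and 13, and 0 in each library when more than 50% of the events at conversion positions had to be conversions. Of the 22 targets in all 5 libraries, 13 were called above 20 CPM, and 3 each with at least 20 reads and above 0.75 events per read. By complex, Mediator had 4, TAFs 1 and GTF2 genes 2 above 20 CPM, and TAFs 5 above 5 CPM. With at least 20 reads Mediator had 2, TAFs 0, RNA polymerases 0 and GTF2 genes 1, and above 0.75 events per read 2, 0, 1 and 0. All of these were 0 under the criterion on 50% of the events. The shares of all genes under these criteria are not given here, so the counts do not set members apart from other genes. Leaving out each library in turn gave 22 to 26 in all, 7 to 7 for Mediator, 2 to 4 for TAFs, 9 to 11 for RNA polymerases and 4 to 5 for GTF2 genes, the TAF count being 4 without RNase T1 1/1. With coding sequence before 3′UTR the 3′UTR shares of the RNase I libraries were 47.9%, 50.8% and 51.3%, and with all coding transcripts 59.5%, 59.4%, 60.0% and, with RNase T1 1/1, 71.2%. Without MED13 and MED13L these shares were 67.0%, 68.2%, 69.3%, 76.9% and 81.9% in the order above, and without POLR2A 61.1%, 60.5%, 61.2% and 70.8% in the first 4 libraries. A reciprocal overlap of 50% gave 1433 sites, 10 of them in all 5 libraries. Counts of members separated by enzyme and of broader coverage kept within 1.5 times of the main values under their alternatives. Leaving out the TAF11-like genes gave shares of targets of 28.4% to 45.1%. All alternatives that leave out genes were chosen after seeing the data.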
